A study of Rattus norvegicus with 6 samples.

Results

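Myofibroblasts are fibroblasts that have taken on part of the contractile gene programme of smooth muscle, and 10 genes of that programme were examined: Acta2, Actg2, Tagln, Cnn1, Myl9, Tpm1, Tpm2, Myh11, Smtn and Lmod1. The genes were chosen with earlier results of these data known and were read as the rows of those symbols in the deposited counts of neonatal rat cardiac fibroblasts (NRCFs), where all 10 were found among the 21857 symbols listed. NRCFs are primary cells grown from newborn hearts, here from rats within 3 days of birth. The series design gives the rats as Sprague-Dawley, while the strain field of the samples reads "Noway". Both groups were transfected, the Vector group (genotype label WT, 3 libraries) with the empty plasmid and the other (genotype label FTO overexpression, 3 libraries) with a plasmid carrying rat FTO, a demethylase of the N6-methyladenosine mark on RNA, and cells were collected at a single time after transfection. No animal, litter or culture is named for a library, so the p-values below measure the spread between these libraries, which may be technical.

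In smooth muscle and in myofibroblasts, actin filaments made of α-smooth muscle actin are pulled by bipolar filaments of myosin II, and phosphorylation of the regulatory light chain by myosin light-chain kinase switches this motor on. Tropomyosins lie along the actin filament, calponin and transgelin bind its sides, and leiomodin starts new filaments. Many of these genes share a control region element, the CArG box, which is bound by serum response factor (SRF) with its coactivators of the myocardin and MRTF family. In the injured heart, resident fibroblasts that switch on some of these genes contract the scar, and α-smooth muscle actin is the usual marker of that state.

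The libraries held 13178952 to 17857999 counts, and 12941 genes passed the filter on low counts, all 10 members among them. Levels are given as counts-per-million values (CPM) on library totals that were first scaled by the TMM method of edgeR, and a floor of 3 counts was worth 0.168 to 0.228 CPM. Fto, which the plasmid was meant to raise, was at 87.7, 89.6 and 87.3 CPM in the Vector libraries and at 93.2, 90.7 and 92.8 CPM in those labelled FTO. Each library labelled FTO thus lay slightly above each Vector library. The log2 fold change of Fto was 0.06 (SE 0.0468, adjusted p = 0.239 by the edgeR quasi-likelihood test), so no rise was called. The second group is therefore named the libraries labelled FTO throughout. The study itself reports a check of the transfection by qRT-PCR. Over all tested genes the log2 fold change had a median of 0.0011, and 32.8% of the genes were called lower and 33.2% higher at an adjusted p-value under 0.05, so a call by itself was common in this comparison.

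Promoter sequence is shown for 3 members because the members were all lower, by differing amounts, and because the CArG box of the Acta2 promoter is a textbook element of this programme. Shared control of the members was not tested. RefSeq start sites on the rat assembly GRCr8 were matched for 6 of the 10 members (Acta2, Actg2, Cnn1, Tpm1, Tpm2 and Smtn), each with a window from 250 bases before the start to 50 bases after it. The counts themselves come with the build rn6 in the submitters' processing notes and carry no coordinates. The stretches of 250 bases before the start follow, 5′ to 3′ on the strand of the gene. They lie at chr1:241172504-241172753 (minus strand) for Acta2, at chr8:76543416-76543665 (minus strand) for Tpm1 and at chr8:28908187-28908436 (plus strand) for Cnn1. Capitals mark a CArG box with 1 base outside A and T in its core of 6, or the letters CATTCC on either strand, which are the core of the element bound by TEAD factors.
Acta2: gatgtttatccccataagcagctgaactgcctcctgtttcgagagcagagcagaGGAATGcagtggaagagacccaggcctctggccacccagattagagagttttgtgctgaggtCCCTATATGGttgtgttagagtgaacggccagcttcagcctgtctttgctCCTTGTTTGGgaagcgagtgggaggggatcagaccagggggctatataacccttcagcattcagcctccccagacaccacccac
Tpm1: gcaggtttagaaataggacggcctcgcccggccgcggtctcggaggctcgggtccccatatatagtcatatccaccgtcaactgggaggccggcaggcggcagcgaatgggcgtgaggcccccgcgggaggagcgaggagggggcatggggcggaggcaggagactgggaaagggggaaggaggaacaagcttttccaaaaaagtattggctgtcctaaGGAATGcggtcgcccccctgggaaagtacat
Cnn1: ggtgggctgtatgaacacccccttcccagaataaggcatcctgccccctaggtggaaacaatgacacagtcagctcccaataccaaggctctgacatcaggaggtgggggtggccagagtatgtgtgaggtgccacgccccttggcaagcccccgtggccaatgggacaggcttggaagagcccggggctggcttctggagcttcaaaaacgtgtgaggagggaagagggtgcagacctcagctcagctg

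No exact CArG box, that is CC, then 6 bases of A or T, then GG, lay in any of the 6 windows, and 1.64% of all 33469 RefSeq windows of this length held one. The Actg2 window, on the minus strand, reached chr4:117594289, inside the gene, whose 5′ end is at 117604379. The sequence before that end of Actg2 was thus not searched. The Tpm2 window also lay inside its gene, reaching chr5:62575976 against a 5′ end at 62576066. Nearly all of the Tpm1 stretch printed above also lay inside its gene, reaching chr8:76543665 against a 5′ end at 76543661. The CATTCC letters of Tpm1 given below thus lie inside the gene, before an internal start. The form with 1 base outside A and T in the core was found in the Acta2 window only, at -134 to -125 and at -84 to -75 from the start, against 8.10% of all windows. CATTCC was found in the windows of Acta2 (-196 to -191) and Tpm1 (-31 to -26), 2 of 6, against 14.2% of all windows. The E-box letters CANNTG were in 5 of the 6 windows and in 72.1% of all windows. These matches describe the letters in the windows only. Whether any of them is bound was not tested, and introns and distal elements were not searched.

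To compare the contractile programme between the groups, the 10 members were read from a single fit over all tested genes. All 10 were called lower in the libraries labelled FTO at an adjusted p-value under 0.05, where 32.8% of all tested genes were called lower. For 9 of the 10 the decrease also passed the threshold of the study (a change of 1 or more on the log2 scale and a p-value under 0.05), which 9.27% of tested genes passed downwards. The study does not say whether its p-value was adjusted, and the unadjusted edgeR p-value was used here. In all 10 each library labelled FTO lay under each Vector library, as was so for 34.8% of tested genes in that direction. The median log2 fold change of the members was -3.54, and they ranged from -4.82 (Actg2) to -0.92 (Tpm2). Together the 10 genes took 1.21% to 1.24% of all counts in the Vector libraries and 0.174% to 0.181% in those labelled FTO.

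**Figure D1:**
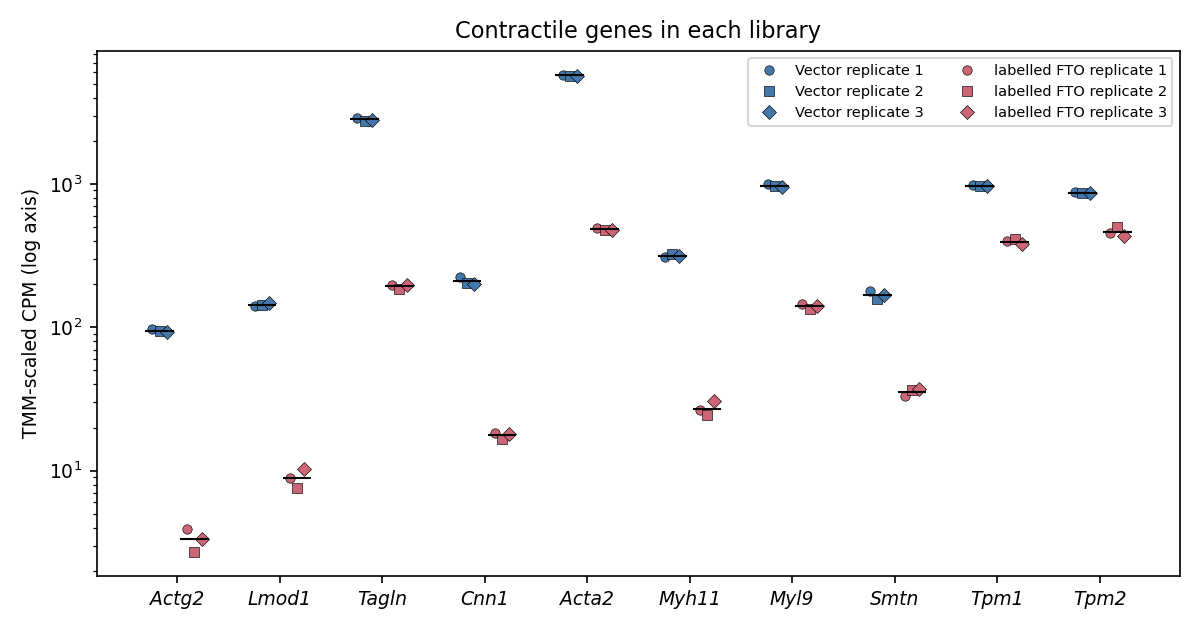
CPM (log axis) of the 10 contractile genes in each of the 6 libraries, ordered from the largest to the smallest decrease, with the group mean as a black bar. In every gene the 3 libraries labelled FTO lie under the 3 Vector libraries, and the gap narrows from Actg2 on the left to Tpm2 on the right.

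The actins form the thin filament. Acta2, which encodes α-smooth muscle actin, was at 5787, 5677 and 5672 CPM in the Vector libraries and at 494, 481 and 479 CPM in the libraries labelled FTO. The libraries of each group lay close together, and the groups were 11.8-fold apart, a change of -3.56 on the log2 scale (SE 0.0401, adjusted p = 2.3e-18 by edgeR). Actg2, the γ-actin of gut and other smooth muscle, was at 97.2, 94.1 and 92.6 CPM in Vector and at 3.93, 2.72 and 3.35 CPM in the libraries labelled FTO. It showed the largest decrease of the members, 28.2-fold (log2 fold change -4.82, SE 0.0917, adjusted p = 7.5e-16 by edgeR). Its low group rests on 36 to 60 counts per library, all above the floor, and varied by 18.2% (SD over mean) against 2.46% in Vector.

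Muscle actins are nearly identical in their coding sequence, and how reads that match several genes were counted is not given in the sources used here. When the counts of Acta1, Acta2, Actc1 and Actg2 were summed to a single row before the fit, the decrease was smaller, with a log2 fold change of -2.53 (SE 0.0409, adjusted p = 1.1e-16 by edgeR). The difference from Acta2 alone comes from the striated actins, which were higher in the libraries labelled FTO. Acta1 (skeletal α-actin) was at 5.34, 6.10 and 6.09 CPM in Vector and 28.2, 29.1 and 26.7 CPM in the other group, a rise of 2.25 on the log2 scale. Actc1 (cardiac α-actin) rose by 1.05, from 259 ± 7.97 to 537 ± 30.8 CPM (SD, 3 libraries each). The cytoplasmic actins Actb and Actg1 decreased by 0.71 and 0.86 on the log2 scale, with adjusted p-values of 2.6e-10 and 5.1e-11 by edgeR.

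Tagln, Cnn1, Smtn and Lmod1 encode proteins that bind or build the actin filament. Tagln, the gene of transgelin (SM22α), was at 2882, 2767 and 2802 CPM in Vector and at 198, 186 and 197 CPM in the libraries labelled FTO. That was a 14.5-fold decrease (log2 fold change -3.86, SE 0.0448, adjusted p = 3.0e-18 by edgeR), with no overlap between the groups. Its paralog Tagln2, which is found in many cell types, went the other way, with a log2 fold change of 0.23 (SE 0.0465, adjusted p = 4.1e-04 by edgeR), and Tagln3 had 0 counts in every library.

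Cnn1, which encodes the calponin of smooth muscle, was at 223, 205 and 200.1 CPM in Vector and at 18.3, 16.6 and 18.0 CPM in the libraries labelled FTO. The groups did not overlap and were 11.9-fold apart (log2 fold change -3.57, SE 0.0636, adjusted p = 3.4e-16 by edgeR). The calponins found outside smooth muscle had log2 fold changes of -0.85 (Cnn2) and -0.16 (Cnn3), both called lower. Lmod1, which encodes the leiomodin of smooth muscle, was at 141, 143 and 149 CPM in Vector and at 8.83, 7.55 and 10.3 CPM in the libraries labelled FTO. Its decrease of 16.0-fold (log2 fold change -4.00, SE 0.0799, adjusted p = 1.3e-15 by edgeR) was the second largest among the members. Lmod3 had at most 1 count in any library, and Lmod2 was not analysed here.

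Smtn encodes smoothelin, an actin-binding protein of contractile smooth muscle. It was at 180.1, 158 and 167 CPM in Vector and at 33.4, 36.7 and 36.9 CPM in the libraries labelled FTO, a smaller decrease of 4.72-fold (log2 fold change -2.24, SE 0.0619, adjusted p = 6.3e-14 by edgeR). Of the smoothelin-like genes, Smtnl2 was at 2.68 to 3.80 CPM in Vector and 1.82 to 2.94 CPM in the other group, where the groups overlapped and no difference was called (adjusted p = 0.0544 by edgeR). Smtnl1 had at most 3 counts in a library.

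Myosin II is the motor of the programme. Myh11, the smooth-muscle heavy chain, was at 310, 323 and 313 CPM in Vector and at 26.6, 24.3 and 30.4 CPM in the libraries labelled FTO. The groups did not overlap, and the decrease was 11.5-fold (log2 fold change -3.53, SE 0.0649, adjusted p = 4.9e-16 by edgeR). Myl9, the regulatory light chain that myosin light-chain kinase phosphorylates, was at 996, 959.9 and 959 CPM in Vector and at 146, 135 and 141 CPM in the libraries labelled FTO. It decreased 6.92-fold (log2 fold change -2.79, SE 0.0443, adjusted p = 9.0e-17 by edgeR), again with no overlap between the groups.

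The non-muscle partners of these myosin genes did not all move the same way. Myh10, the heavy chain of non-muscle myosin IIB, was at 1342, 1397 and 1387 CPM in Vector and at 266, 254 and 307 CPM in the libraries labelled FTO, and its decrease of 2.32 on the log2 scale (SE 0.0592, adjusted p = 2.4e-14 by edgeR) was the largest among the called paralogs. Of the light chains close to Myl9, Myl12a decreased by 0.62 and Myl12b increased by 0.39 on the log2 scale, with adjusted p-values of 4.8e-09 and 3.0e-06 by edgeR. Myl6, the essential light chain of non-muscle and smooth-muscle myosin, decreased by 0.84. Myh9, the heavy chain of non-muscle myosin IIA, had only 0 to 3 counts in any library, although nearly every cell type uses this gene, so that row was not read as its level.

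Tropomyosins strengthen the filament and set which myosins can reach it. Tpm1 was at 986, 963 and 962 CPM in Vector and at 398, 411 and 379 CPM in the libraries labelled FTO, a decrease of 2.45-fold (log2 fold change -1.29, SE 0.0415, adjusted p = 3.7e-13 by edgeR). Tpm2 was at 878, 870.0 and 866 CPM in Vector and at 453, 497 and 434 CPM in the libraries labelled FTO. This 1.89-fold decrease (log2 fold change -0.92, SE 0.0475, adjusted p = 1.4e-10 by edgeR) was the smallest of the 10 and the only one under the 2-fold size that the study asked for.

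Tpm1 and Tpm2 also give non-muscle isoforms, and counts per symbol do not separate these from the smooth-muscle forms. Among the other tropomyosins, Tpm4 decreased by 1.03 on the log2 scale (adjusted p = 2.7e-12 by edgeR), with a 95% interval (-1.11 to -0.95) that overlapped that of Tpm2 (-1.02 to -0.82), while Tpm3 increased by 0.13 (adjusted p = 0.0129 by edgeR). The call on Tpm3 was lost without Vector replicate 2 (adjusted p = 0.0687 by edgeR) or without Vector replicate 3 (adjusted p = 0.0777 by edgeR). Of the 19 paralogs listed for all members, 14 were tested, of which 8 were called lower and 5 higher, with a median log2 fold change of -0.57. With all 4 tropomyosin genes summed to a single row the log2 fold change was -0.87 (SE 0.0384, adjusted p = 2.0e-11 by edgeR).

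**Figure D2:**
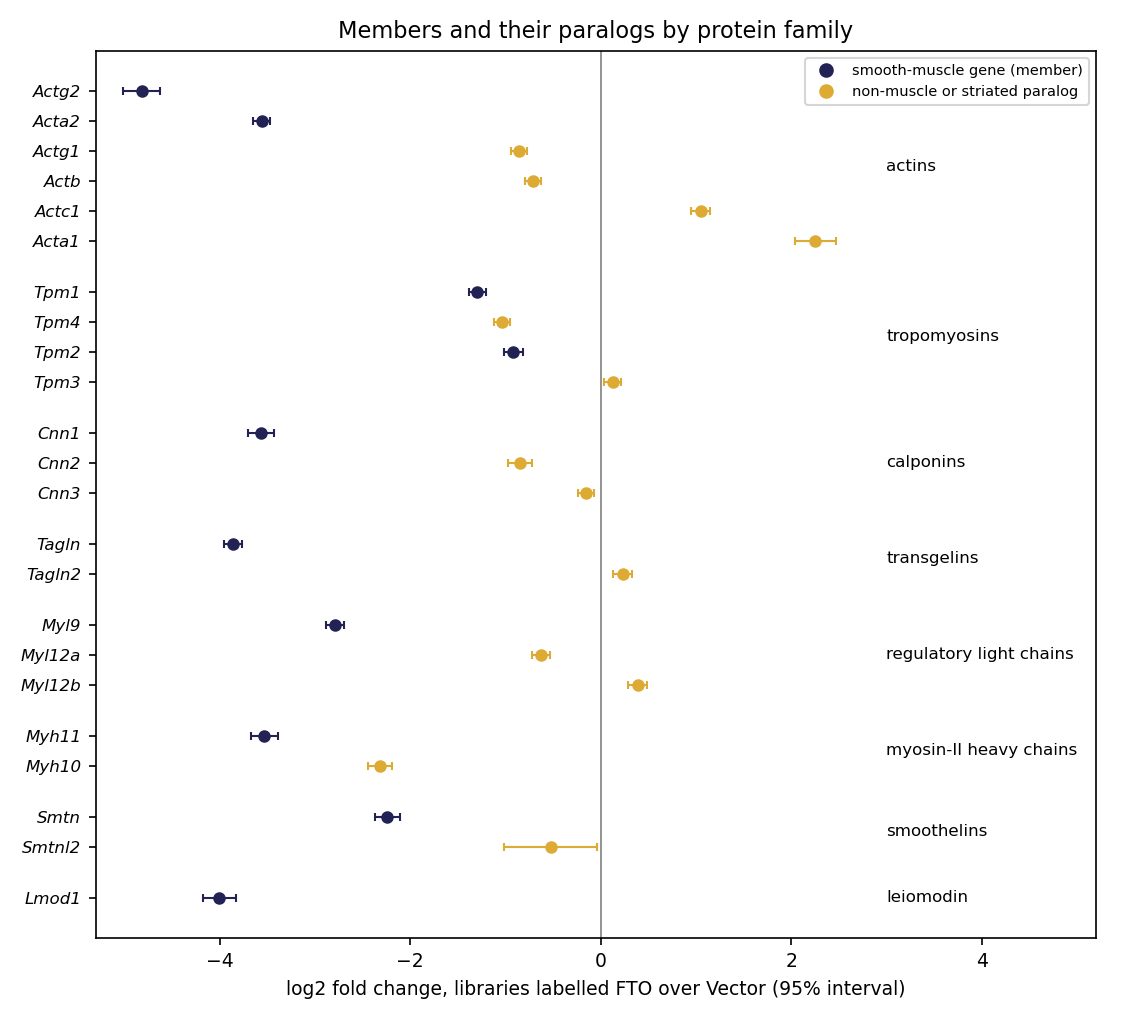
Log2 ratio of the group labelled FTO to the Vector group with its 95% confidence interval, for the 10 contractile genes (dark) and the tested paralogs of their families (yellow). In the actins, calponins, transgelins, light chains and heavy chains the smooth-muscle gene lies furthest to the left, whereas Tpm4 lies between Tpm1 and Tpm2. Untested paralogs, Myh9 among them, and Myl6 are not drawn.

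The size of the decrease ranged widely among the members. In the order from the largest decrease, the members were Actg2, Lmod1, Tagln, Cnn1, Acta2, Myh11, Myl9, Smtn, Tpm1 and Tpm2, and the 95% confidence intervals of Cnn1 (-3.70 to -3.43), Acta2 (-3.65 to -3.47) and Myh11 (-3.67 to -3.39) covered one another. The ratio of neighbours in this order was compared in each library, which does not depend on scaling. In 6 of the 9 neighbour pairs the ratios of the groups did not overlap, with an adjusted p of 0.15 for each by an exact permutation test, which does not pass 0.05. An unadjusted p of 0.10 is the smallest that 3 libraries against 3 can give. The pairs that overlapped were Lmod1 with Tagln, Cnn1 with Acta2 and Acta2 with Myh11, and no pair of neighbours was told apart by this test. The order was taken from these same libraries, so the sign of each difference followed from the sorting. Placed among all 12941 tested genes by log2 fold change, the member with the largest decrease (Actg2) was 35th from the lowest, Acta2 was 97th and Tpm2 was 1341st.

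The members also differed in which library was highest or lowest. Within the libraries labelled FTO, replicate 2 was lowest for 6 of the 10 genes, and yet it was the highest for Tpm1 and Tpm2. For Lmod1, Myh11 and Smtn, replicate 3 was the highest. In Vector, replicate 1 was highest for 8 of the 10. The spread within a group reached 18.2% of the mean for Actg2, 15.3% for Lmod1 and 11.4% for Myh11 in the libraries labelled FTO, and was at most 6.48% for a member in Vector (Smtn).

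To set each smooth-muscle gene against its own protein family, its share of the family's counts was computed in each library. These shares use counts without division by transcript length, so they are compared between libraries and not between genes. Acta2 and Actg2 together held 44.0%, 45.2% and 44.3% of the counts of the 6 actins in Vector and 9.30%, 9.15% and 9.25% in the libraries labelled FTO. Over the same libraries Actb went from 47.5% ± 0.664 to 72.0% ± 0.410 of actin counts and Actc1 from 1.99% ± 0.0368 to 10.2% ± 0.492 (SD, 3 libraries each). The share of Actb was thus higher although its CPM was lower.

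The same comparison in the other families gave a lower share in each. Tagln held 74.8% ± 0.362 of transgelin counts in Vector and 14.8% ± 1.21 in the libraries labelled FTO, with Tagln2 making up the rest. Cnn1 went from 24.4% ± 0.733 to 3.24% ± 0.149 of the calponins, and Myl9 from 48.5% ± 0.231 to 15.4% ± 0.801 of the regulatory light chains. Myh11 went from 18.6% ± 0.198 to 8.95% ± 0.202 of the heavy chains, in practice against Myh10 alone since the Myh9 row was nearly empty. The numerically smallest change was in the tropomyosins, where Tpm1 and Tpm2 held 53.8% ± 0.431 in Vector and 45.7% ± 1.21 in the libraries labelled FTO. In none of the 6 families did the shares of the groups overlap, and each gave p = 0.10 in a two-sided exact permutation test (also 0.10 adjusted over the 6 families), which is the smallest that this design allows and does not reach 0.05.

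**Figure D3:**
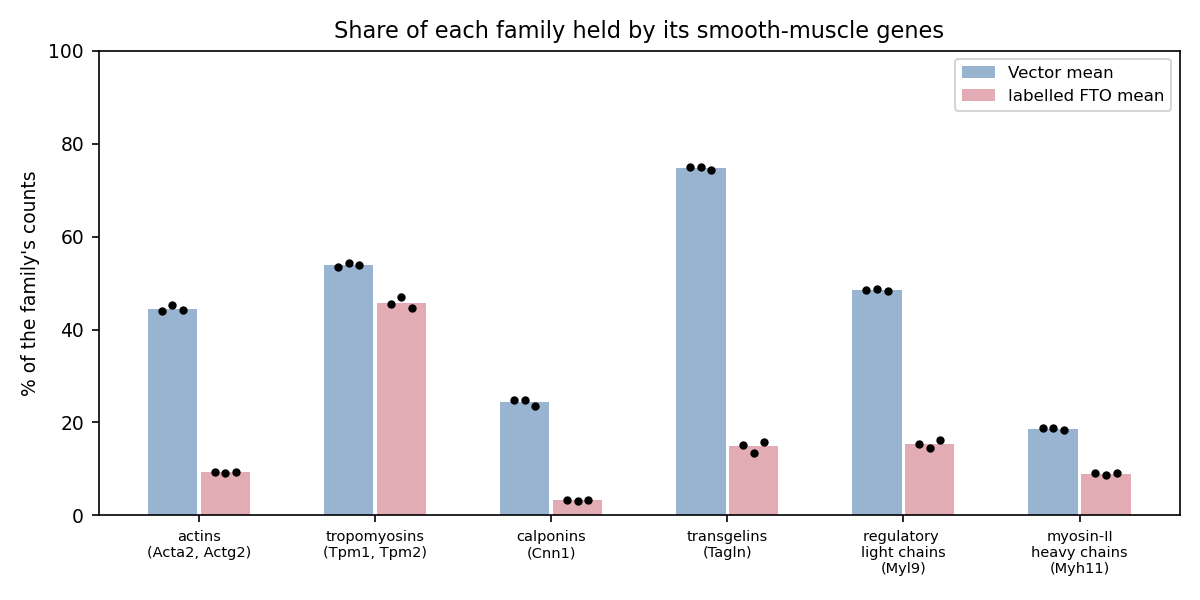
Percent of a family's counts held by its smooth-muscle genes (named under each family), as bars for the mean of 3 libraries and points for the single libraries. The bars of the libraries labelled FTO stand at 9.23% against 44.5% in the actins and at 14.8% against 74.8% in the transgelins, and at 45.7% against 53.8% in the tropomyosins.

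Beside the 10 members, 25 other genes of the smooth-muscle contractile apparatus and its cytoskeleton were compared, all of which were tested. Of these, 20 were called lower and 4 higher, with a median log2 fold change of -1.68 against -3.54 for the members and 0.0011 over all tested genes. Kcnmb1, the smooth-muscle subunit of the BK potassium channel, decreased most, from 16.4 ± 0.940 CPM in Vector to 0.773 ± 0.222 CPM in the other group (SD, 3 libraries each, log2 fold change -4.36, SE 0.179, adjusted p = 8.2e-12 by edgeR). Mylk, the kinase that acts on Myl9, decreased by 2.16 on the log2 scale, from 487, 497 and 500.1 CPM to 112, 98.3 and 120.0 CPM, and its groups did not overlap. Cald1 (caldesmon) had a log2 fold change of -1.12 and Vcl (vinculin) one of -2.30, both called lower. Des (desmin) was the exception with the largest increase, from 91.8, 84.4 and 82.9 CPM to 460.5, 502 and 455 CPM, a rise of 2.45 on the log2 scale (SE 0.0536, adjusted p = 3.8e-15 by edgeR).

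The transcription factors that are known to drive these genes were compared next, and Srf, Myocd and Mkl1 were all called lower, by less than 0.5 on the log2 scale. Srf was at 92.3, 93.9 and 97.0 CPM in Vector and at 77.3, 73.1 and 84.2 CPM in the libraries labelled FTO (log2 fold change -0.27, SE 0.0571, adjusted p = 7.3e-04 by edgeR). Myocd (myocardin) was low in both groups, at 9.55 to 11.3 CPM and 6.94 to 8.20 CPM (log2 fold change -0.46, SE 0.124, adjusted p = 0.0043 by edgeR), and Mkl1 (MRTF-A) changed by -0.31 (SE 0.0719, adjusted p = 0.0015 by edgeR). Klf4, which encodes a known repressor of contractile genes in smooth muscle, was at 79.0, 77.4 and 79.2 CPM in Vector and rose by 1.32 on the log2 scale (SE 0.0493, adjusted p = 2.6e-12 by edgeR) to 189, 208 and 191 CPM. Of the 22 regulators listed, 20 were tested, of which 11 were called lower and 6 higher, with a median of -0.26. The counts of this and the other lists stand against 32.8% of all tested genes called lower and 33.2% called higher. Tgfb1i1 (Hic-5), a coactivator at focal adhesions, decreased most, by 1.33, and among those with at least 100 counts Smad3, a transducer of TGF-β signals, increased most, by 1.37. Mkl2 and Prkg1 were not analysed here.

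A list of other genes under SRF and MRTF was also mostly lower, 16 of 19 tested against 3 higher, with a median log2 fold change of -0.86. Actb, Actg1, Tpm4, Vcl, Flna, Pdlim7, Srf and Fhl2, all called lower, stand on the lists above as well. The count is therefore not separate from those lists. Ctgf, which encodes a matricellular growth factor, had the lowest log2 fold change at -3.52, and Fosl1, an AP-1 subunit, the highest at 1.51. Of 23 genes of RhoA and ROCK signalling, which controls myosin phosphorylation and MRTF entry to the nucleus, 14 were called lower (11 to 14 over the alternatives) and 4 higher, with a median of -0.21. Of the 14, Rhoc, Dapk3 and Limk2 were near the threshold, with adjusted p-values of 0.0405, 0.049 and 0.0234 by edgeR. All 3 lost their calls with DESeq2 and without Vector replicate 1, Vector replicate 2, FTO replicate 1 or FTO replicate 3. Ppp1r14a (CPI-17), an inhibitor of myosin phosphatase found in smooth muscle, decreased by 1.83 and the endothelin receptor gene Ednra increased by 1.67.

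**Figure D4:**
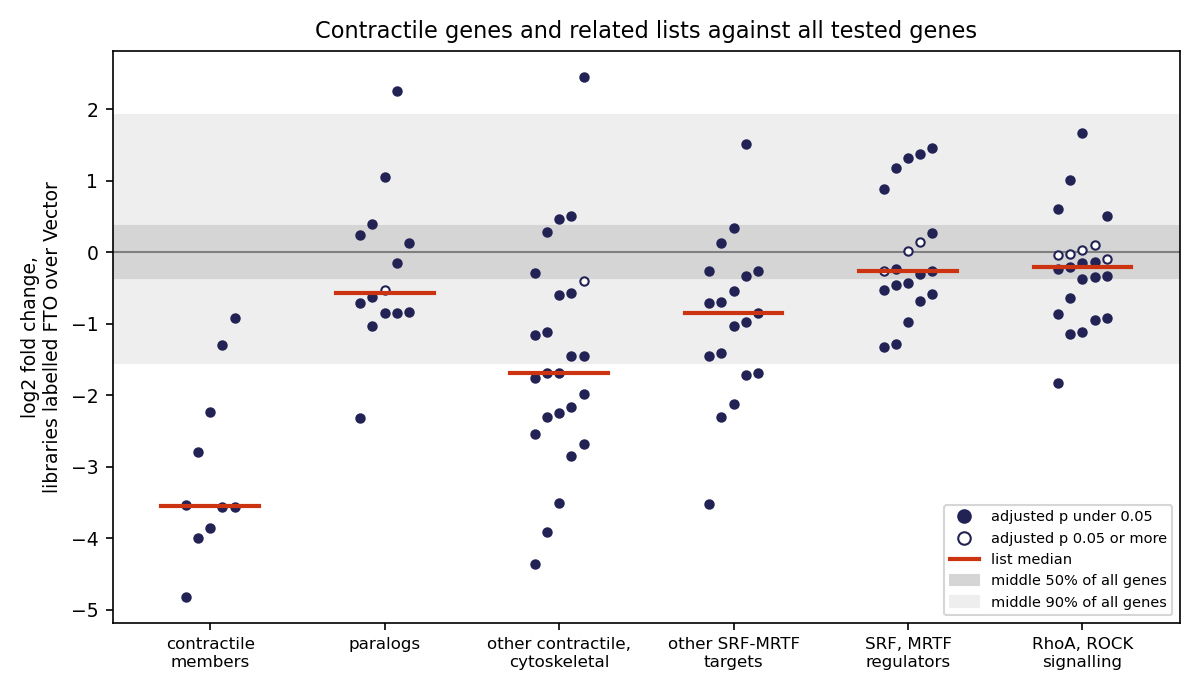
Log2 ratio of the group labelled FTO to the Vector group for each tested gene of 6 lists (filled points, adjusted p under 0.05), with the list median in red and the middle 50% (-0.36 to 0.36) and 90% (-1.55 to 1.91) of all tested genes in grey. The 10 contractile members have a median of -3.54 and the other contractile genes one of -1.68. The medians of the regulators (-0.26) and RhoA genes (-0.21) lie within the middle 50% of all genes. Single genes spread to both sides, from -1.33 to 1.45 in the regulators and from -1.83 to 1.67 in the RhoA genes.

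The genes whose change was most like that of Acta2 were sought among all genes with a mean of at least 100 counts, as the smallest root mean square difference between log2 CPM profiles centred on their own means over the 6 libraries. Leaving out members, these were Wisp2, Lyz2, Ctgf, Tubb2b and Vldlr, with differences from 0.0413 to 0.0753 on the log2 scale. Wisp2, a CCN family gene, was the nearest and went from 540.2 ± 7.10 to 44.6 ± 2.18 CPM (SD, 3 libraries each). Lyz2, a lysozyme gene typical of macrophages, was the second nearest and went from 1116 ± 22.8 to 97.6 ± 5.80 CPM.

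Smooth-muscle genes can also come from vascular smooth muscle cells and pericytes in such a culture, and in bulk RNA fewer cells of a type and less RNA per cell cannot be told apart. Mural markers that are not members were therefore compared. Mcam, Des, Itga8, Kcnmb1 and Casq2 among them also stand on the list of other contractile genes, so the counts are not separate. Of 17 such mural markers, 16 were tested. Of these, 9 were called lower and 7 higher, where 32.8% and 33.2% of all tested genes were so called. The summed level of the 17 was 2507 to 2558 CPM in Vector and 1579 to 1675 CPM in the libraries labelled FTO. The markers changed strongly in both directions, so the sum does not stand for each of them. Mean levels went from 2.06 to 60.8 CPM for Kcnj8 and from 20.9 to 114 CPM for Abcc9. They went from 226 to 14.9 CPM for Notch3 and from 37.0 to 1.76 CPM for Heyl. Rgs5, a defining pericyte marker, was at 0.268 to 0.911 CPM, close to the floor, and Npnt had 0 counts in FTO replicate 2. Of 10 fibroblast markers, 4 were called lower and 5 higher. Their sum was 3950 to 4128 CPM in Vector and 8724 to 9083 CPM in the libraries labelled FTO, of which Dcn alone made up 5444 to 5858 CPM in the latter, and none was at 0. Of 17 cardiomyocyte markers in the files, 16 were tested, 14 higher and 1 lower, with sums of 1661 to 1691 CPM and 2595 to 2682 CPM, and no marker was at 0.

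Macrophage markers moved with the members, 11 of 12 lower and 1 higher, none at 0, with sums of 1739 to 1803 CPM in Vector and 255 to 288 CPM in the libraries labelled FTO. Endothelial markers were few, with sums of 33.9 to 36.7 CPM and 57.9 to 62.5 CPM. Of the 10, 6 were tested, 4 higher and 1 lower, Cldn5 was at 0 in every library and Emcn in every Vector library. The 5 skeletal muscle markers, of which Myod1 was at 0 throughout and 3 were tested (1 lower, 1 higher), summed to 88.7 to 95.5 CPM and 456 to 503 CPM, nearly all from Des. The part of any of these cell types in the decrease of the contractile genes was not tested.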

How the data were processed

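RNA was sequenced from 6 libraries of NRCFs, 3 of the Vector group and 3 labelled FTO, grouped by genotype label. The authors deposited raw counts per gene symbol, 1 file per library, made from total RNA with the NEBNext Ultra kit. Trimmomatic and rn6 are named in the submitters' processing notes; the aligner, counter, annotation, strand setting and treatment of multi-mapping reads are not given in the sources used here.

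All 21857 symbols were read and 12941 kept by filterByExpr (minimum count 10). Groups were compared with the two-sided quasi-likelihood test of edgeR 4.0.16 in R 4.3.3 after TMM scaling, without covariates, with Benjamini-Hochberg adjustment over the 12941 genes. The standard error (SE) is the log2 fold change over the square root of F. Family shares and neighbour ratios were tested by exact permutation over libraries. Total counts were 13178952 to 17857999 per library; intervals and the floor of 3 counts cover counting error and replicate spread only, since no molecular identifiers were used. Within-group pairs differed by more than counting noise (chi-square per degree of freedom 1.58 to 8.39), so none was treated as a library deposited again; this does not show that they came from separate cultures.

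The members and lists were chosen with earlier results of these data known. Named genes were the 10 members, Fto, the members of the 6 families, Smtnl1, Smtnl2, Lmod2, Lmod3, Srf, Myocd, Mkl1, Mkl2, Klf4, Mylk, Cald1, Des, Vcl, the called gene with the largest rise and fall in each of the other contractile and regulatory lists at a mean of at least 100 counts, and the genes most like Acta2; any other was singled out after its values were seen. Alternatives were DESeq2 1.42.0, limma-voom (limma 3.58.1), other scalings and filters, glmTreat against a 1.5-fold change, summed rows of near-identical genes, the replicate number as a block, and leaving out each library. Shares divided by length were not computed, because the table used here gives gene spans and no transcript lengths.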

Additional observations from a re-analysis of the deposited data

How the results depend on the processing

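All 10 members stayed lower, with an adjusted p-value under 0.05, in each of 13 alternative fits, the one with the replicate number as a block included, and all 10 also passed glmTreat against a 1.5-fold change, which called 1523 genes lower over the whole table. Over the 13 fits the log2 fold change ran from -3.58 to -3.55 for Acta2, from -4.95 to -4.71 for Actg2 and from -0.97 to -0.88 for Tpm2, and that of Fto from 0.051 to 0.078 without a call. Deviations of same-numbered libraries correlated at 0.0035, -0.079 and 0.035, within the -0.115 to 0.109 of differently numbered ones. No pairing by replicate number was seen, but with 3 libraries in a group this cannot show that none existed. With the replicate block 4181 genes were called lower over the whole table against 4239. For the shares and neighbour ratios a block gave p = 0.25 at the least in an exact sign-flip test of 3 pairs, for example a change of -35.3 points in the actin share. The order of Cnn1, Acta2 and Myh11 was not stable when single libraries were left out. The log2 difference of Acta2 from Cnn1 (0.010) ran from -0.0274 to 0.0375, with a change of sign without Vector replicate 1 or FTO replicate 2 (-0.0267). That of Myh11 from Acta2 (0.015) ran from -0.0794 to 0.0859, with a change of sign without FTO replicate 3 or Vector replicate 1 (-0.0071), and the cause was not tested. Left-out libraries also turned the sign of 3 uncalled list genes, Gata6 (-0.0217 to 0.0371), Arhgef12 (-0.113 to 0.0499) and Ppp1cb (-0.0064 to 0.0564). Of 93 other listed genes, 14 changed in at least 1 alternative, with 25 calls lost, 12 gained and 4 changes of sign. Depth limits Actg2 most, at 36 to 60 counts in the low group. The comparison of family shares with and without division by transcript length was not run.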
